A study of Mus musculus with 9 samples.

Results

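Zp1, Zp2, Zp3, Gdf9 and Bmp15 are 5 oocyte genes, chosen by name as rows of a table of 24454 genes, and all 5 were measured in 2-cell mouse embryos. Zp1, Zp2 and Zp3 encode the glycoproteins of the zona pellucida, the coat around the mouse egg, and Gdf9 and Bmp15 encode growth factors of the TGF-beta family that the oocyte secretes. The question asked of them was how much of this stored RNA was left in each library, and whether it differed between the groups. RNA was sequenced in 9 libraries of ICR embryos cultured in vitro to the 2-cell stage, each from a pool of 3 embryos. They formed 3 groups with 3 libraries each: embryos loaded with high glucose and given what the labels call ZGW rat serum, with no further account of ZGW (the drug group, here ZGW serum), embryos loaded with high glucose alone (high glucose), and a control group. The labels state no glucose dose or time and do not say whether the last 2 groups received drug-free rat serum, so the serum and what it carried cannot be told apart. They call the pools biological replicates but do not say from which matings the pools came, so a p-value here rests on the spread between pools, part of which may be technical.

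The zona genes are transcribed in the growing oocyte and are silent afterwards. ZP2 and ZP3 are needed for a stable coat and sperm binding, and ZP1 cross-links the filaments they form. GDF9 and BMP15 act from the oocyte on the surrounding granulosa and cumulus cells through the type 2 receptor BMPR2 and Smad proteins, and they are known for driving follicle growth and expansion of the cumulus. The messengers of the 5 genes belong to the oocyte stock that is degraded as the embryonic genome takes over. In such pools, fewer molecules per embryo and a larger total of other RNA cannot be told apart.

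All 5 genes had enough counts in these embryos to be tested, and none shared transcript sequence with another gene. On GRCm38, Zp1 lies on chromosome 19 (10914287 to 10920632, minus strand), Zp2 on chromosome 7 (120126772 to 120145291, minus strand) and Zp3 on chromosome 5 (135980099 to 135988624, plus strand). Gdf9 lies on chromosome 11 (53431023 to 53437904, plus strand) and Bmp15 on chromosome X (6314107 to 6320721, minus strand). None of the 50-base stretches of their annotated transcripts occurs in the transcripts of another gene, and 0 other genes shared their 9 counts. Uqcrq, a respiratory chain gene on the opposite strand, lies 191 bases from Gdf9. A counting setting for strand is not given in the sources used here, and overlap with other annotated genes was not searched for. Uqcrq averaged 78.0 ± 35.7 CPM with ZGW serum, 72.9 ± 24.1 under high glucose and 94.0 ± 36.8 in control (SD, n = 3 each). A CPM value is a count relative to the library total, put on a common total for all libraries and corrected for composition with TMM factors.

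Promoter sequence was at hand for 2 of the 5 genes, Zp3 and Bmp15, and is shown because it is where oocyte factors act on these genes. The letters are the 250 bases before the annotated start, from RefSeq on GRCm38.p6, read 5′ to 3′ on the strand of the gene. Capitals mark each match to CANNTG, the E-box letters, which read the same way on both strands. FIGLA, a factor of the oocyte, is known to act on zona gene promoters through an E-box.
Zp3 (chr5:135979855-135980104, plus strand): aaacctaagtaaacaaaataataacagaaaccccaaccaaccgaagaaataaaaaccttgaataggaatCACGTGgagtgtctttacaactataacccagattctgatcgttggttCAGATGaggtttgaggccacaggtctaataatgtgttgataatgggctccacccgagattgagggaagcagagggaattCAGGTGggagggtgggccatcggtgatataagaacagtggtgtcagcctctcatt
Bmp15 (chrX:6320725-6320974, minus strand): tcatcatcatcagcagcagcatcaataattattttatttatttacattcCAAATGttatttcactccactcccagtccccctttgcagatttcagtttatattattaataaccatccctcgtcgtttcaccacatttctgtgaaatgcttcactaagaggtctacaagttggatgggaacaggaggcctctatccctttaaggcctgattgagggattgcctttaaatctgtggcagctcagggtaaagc
The Zp3 window held 3 matches, beginning 181, 134 and 55 bases before the start, and the Bmp15 window held 1, beginning 201 bases before it. Of 32851 promoter windows of that length, 66.2% held at least 1 match and 12.2% at least 3, so a match is a common feature and only describes the letters.

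The library totals lay between 11934924 and 16916343 counts, and the test covered 16964 genes. Control replicate 1 and ZGW serum replicate 3 stood apart, with the lowest median correlations with the other libraries (0.808 and 0.809, against 0.823 to 0.847 for the rest). Some of the shifts of the 5 genes without them are given beside their values. The labelled stage was checked with its own genes: 13 of the 14 measured 2-cell activation genes averaged at least 10 CPM, and so did 22 of 24 other stored oocyte transcripts. Of 15 markers of granulosa and cumulus cells, which surround the egg, 8 averaged under 1 CPM. Their sum ran from 26.4 to 34.7 CPM with ZGW serum, from 25.8 to 36.3 under high glucose and from 40.3 to 84.5 in control, and its part in the results was not tested. Follistatin (Fst) had no count in any control library and was at most 0.163 CPM elsewhere. Igfbp5 stood at 7.72, 1.56 and 2.77 CPM in control and at most 0.158 CPM with ZGW serum or under high glucose. Gja1 averaged 17.7 CPM in control, 10.2 under high glucose and 2.96 with ZGW serum. Amh went the other way, at 1.10 to 1.86 CPM with ZGW serum, 0.604 to 0.896 under high glucose and 0.372 to 0.801 in control. Among the 8 markers that edgeR tested, 7 had a lower fitted value under high glucose than in control and 1 a higher. Between ZGW serum and control 5 were lower and 3 higher. Between ZGW serum and high glucose 3 were lower and 5 higher, and 0 were called in any comparison. A list of 12 markers of blood, stroma and epithelium summed to 205.5 to 289.3 CPM with ZGW serum, 122.5 to 243.6 under high glucose and 234.0 to 282.8 in control. Hba-a1 alone averaged 204.0, 111.5 and 143.2 CPM in that order, and Epcam 13.1, 38.4 and 72.4 CPM. The other globin genes Hbb-bs and Hbb-bt stayed at or below 0.326 CPM, and 5 of the 12 markers averaged under 1 CPM.

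The 2 growth factor messengers were far more abundant than the zona messengers. Averaged over the 9 libraries and per kilobase of annotated exon, Bmp15 stood at 383.4 CPM per kilobase, Gdf9 at 105.9, Zp3 at 39.4, Zp2 at 25.3 and Zp1 at 7.57. Bmp15 was first, Gdf9 second and Zp1 last in each of the 9 libraries. Zp3 and Zp2 did not keep an order: Zp3 was above Zp2 per kilobase in 6 libraries and below it in 3, namely replicate 3 of ZGW serum, replicate 1 of high glucose and replicate 3 of control. By mean CPM, Bmp15 ranked 97 among the 16964 genes tested, Gdf9 767, Zp2 2271, Zp3 2830 and Zp1 6189. Together the 5 genes took 0.163% ± 0.042 of counts with ZGW serum, 0.177% ± 0.025 under high glucose and 0.114% ± 0.030 in control (SD, n = 3 each). Single libraries lay between 0.120% and 0.204% with ZGW serum, between 0.149% and 0.194% under high glucose and between 0.0796% and 0.136% in control. The high glucose libraries all lay narrowly above the control libraries in this share (lowest 0.149%, against a highest of 0.136%), and those with ZGW serum overlapped both. Among single genes tested, 13.7% had ranges apart, either way, between high glucose and control. The mean share was 0.143% with ZGW serum without its replicate 3 and 0.132% in control without its replicate 1. Most of it was Bmp15, which made up 81.2% ± 3.86 of the counts of the 5 genes with ZGW serum, 75.2% ± 3.71 under high glucose and 71.8% ± 4.03 in control (SD, n = 3 each).

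**Figure D1:**
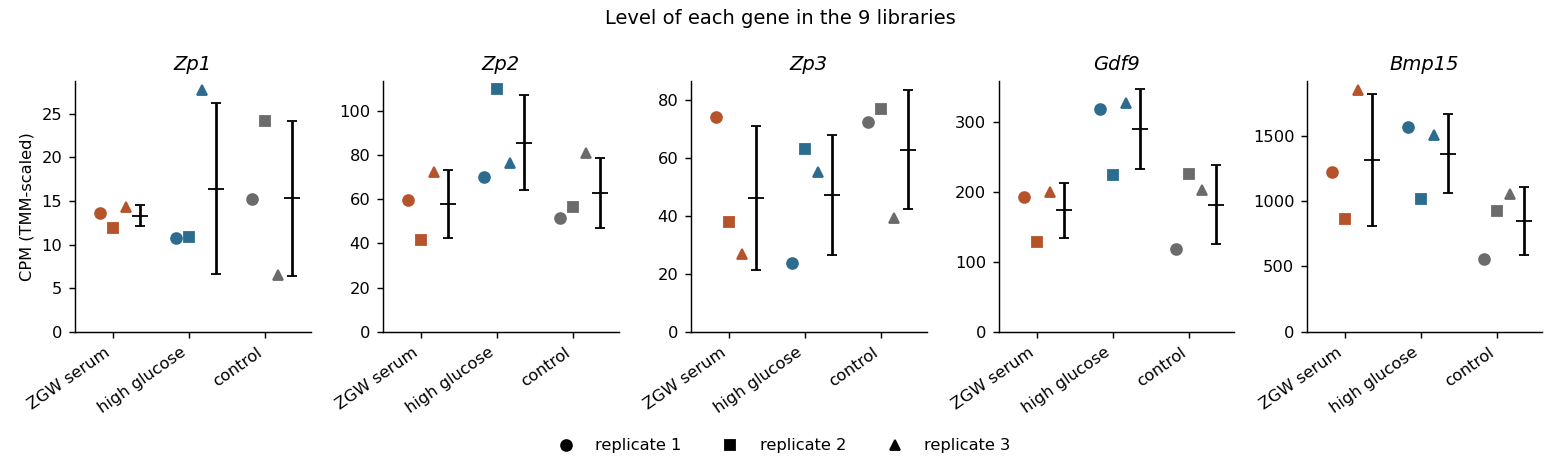
Level of each gene (TMM-scaled CPM, vertical axes starting at 0) in the libraries with ZGW serum, high glucose and control; symbols are replicates 1 to 3, and bars are the mean ± SD of 3 libraries. The groups overlap in every panel except Gdf9, where the libraries with ZGW serum (128.6 to 199.5 CPM) all lie below those under high glucose (224.7 to 327.5 CPM).

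No gene passed the test in any of the 3 comparisons. With Benjamini-Hochberg adjustment, the quasi-likelihood test of edgeR called 0% of the 16964 genes in each of them. Unadjusted p-values were under 0.05 for 1473 genes (8.68%) between ZGW serum and high glucose, 1673 (9.86%) between ZGW serum and control and 1253 (7.39%) between high glucose and control; of the 5 genes this held for Gdf9 in the comparison of ZGW serum with high glucose alone. In the same order limma-voom called 0, 1 (0.00589%) and 0 genes. DESeq2, which gave an adjusted p to fewer genes, called 241 of 16090 (1.50%), 348 of 14487 (2.40%) and 129 of 15762 (0.818%). None of the 5 genes was called by any of these tools. Group ranges were apart in 17.3% of the genes that were tested for ZGW serum against high glucose, in 16.3% for ZGW serum against control and in 13.7% for high glucose against control, of which the lower ones made up 8.26%, 7.30% and 6.91% of genes.

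Glucose-loaded embryos with and without the serum were set side by side first. Gdf9, which acts on cumulus cells, stood at 192.1, 128.6 and 199.5 CPM with ZGW serum (replicates 1 to 3), against 317.9, 224.7 and 327.5 CPM under high glucose. Every library with ZGW serum was lower than every high glucose library. The fitted fold was 0.598, with a 95% interval from 0.372 to 0.961 and a log2 fold change of -0.74 ± 0.31 (SE). It did not pass the test across all genes (edgeR adjusted p = 0.565, unadjusted p = 0.0362; adjusted p from 0.326 to 0.851 over the alternatives). Such an absence of overlap towards lower values held for 8.26% of all genes tested, and for 1 of these 5. The log2 fold change was -0.83 without ZGW serum replicate 3. Over all fits that left out a single library it ran from -0.90 to -0.56, weakest without ZGW serum replicate 2.

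Bmp15, the partner of Gdf9, stood at 1225, 861.7 and 1851 CPM with ZGW serum, against 1563, 1016 and 1504 CPM under high glucose. The ranges overlapped, and ZGW serum replicate 3 was the highest of the 9 libraries. The fold was 0.965 with a 95% interval from 0.576 to 1.62, and the log2 fold change was -0.05 ± 0.34 (edgeR adjusted p = 0.983). Without ZGW serum replicate 3 the log2 fold change was -0.36, and without ZGW serum replicate 2 it was 0.18.

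The zona genes overlapped between ZGW serum and high glucose. Zp2, the coat protein that sperm bind, stood at 59.9, 41.5 and 72.1 CPM with ZGW serum, against 69.9, 110.0 and 76.5 CPM under high glucose. Replicate 2 of high glucose was the highest of the 9 libraries for this gene, and replicate 2 of ZGW serum the lowest. The fold was 0.676 with a 95% interval from 0.409 to 1.12 (edgeR adjusted p = 0.672). Zp3, the partner of ZP2 in the filaments, stood at 74.2, 37.9 and 26.7 CPM with ZGW serum, against 23.7, 63.0 and 55.1 CPM under high glucose. Each group held both high and low libraries, and the fold was 0.978 with a 95% interval from 0.464 to 2.06 (edgeR adjusted p = 0.997). The log2 fold change of Zp3 was -0.03, and 0.27 without ZGW serum replicate 3. Zp1, the cross-linker, stood at 13.6, 11.9 and 14.3 CPM with ZGW serum, against 10.7, 10.8 and 27.7 CPM under high glucose. Its high mean under high glucose came from replicate 3, and the log2 fold change of -0.30 ± 0.60 turned to 0.29 without that library (edgeR adjusted p = 0.926 with all libraries).

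Glucose loading without the serum was read from high glucose against control. Gdf9 stood at 317.9, 224.7 and 327.5 CPM under high glucose, against 118.1, 225.1 and 202.3 CPM in control. The lowest high glucose library and the highest control library were nearly level, so the ranges overlapped slightly. The fold was 1.59 with a 95% interval from 0.993 to 2.56, and the log2 fold change was 0.67 ± 0.31 (edgeR adjusted p = 0.685). Bmp15 stood at 1563, 1016 and 1504 CPM under high glucose, against 556.9, 923.8 and 1056 CPM in control. High glucose replicate 2 lay below control replicate 3, and the other high glucose libraries lay above all of control. The fold of Bmp15 was 1.61 with a 95% interval from 0.958 to 2.70, and the log2 fold change was 0.69 ± 0.34 (edgeR adjusted p = 0.697). Control replicate 1, which stood apart, was the lowest of the 9 libraries for both growth factors. Without it the log2 fold changes were 0.44 for Gdf9 and 0.46 for Bmp15.

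Among the zona genes, Zp2 stood at 69.9, 110.0 and 76.5 CPM under high glucose, against 51.5, 56.6 and 81.0 CPM in control, with a fold of 1.36 (95% interval 0.820 to 2.24, edgeR adjusted p = 0.812). Zp3 stood at 23.7, 63.0 and 55.1 CPM under high glucose, against 72.5, 76.8 and 39.2 CPM in control, with a fold of 0.752 (95% interval 0.357 to 1.59, edgeR adjusted p = 0.902). Its highest library of all was control replicate 2, and 2 of the 3 high glucose libraries lay within the control range. Zp1 stood at 10.7, 10.8 and 27.7 CPM under high glucose, against 15.2, 24.2 and 6.49 CPM in control, with a fold of 1.07 (95% interval 0.430 to 2.68, edgeR adjusted p = 0.985). The lowest count of any of the 5 genes was the 89 counts of Zp1 in control replicate 3, where counting error alone allows 71.5 to 109.5 counts (exact Poisson, 95%).

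ZGW serum was also compared with control, to see how far embryos given glucose and serum stood from those of the control group. These values share libraries with both comparisons above. The log2 fold change of Bmp15 was 0.63 ± 0.34, a fold of 1.55 with a 95% interval from 0.925 to 2.61 (edgeR adjusted p = 0.567). Without ZGW serum replicate 3 it was 0.33, and without that library and control replicate 1 together it was 0.10. Gdf9 had a fold of 0.953 (95% interval 0.595 to 1.53, edgeR adjusted p = 0.960), so of the pair Bmp15 had the higher fitted value. Folds were 0.917 for Zp2, 0.736 for Zp3 and 0.868 for Zp1, with edgeR adjusted p-values of 0.933, 0.806 and 0.941. For Zp3 the log2 fold change of -0.44 was -0.14 without ZGW serum replicate 3 and -0.03 without that library and control replicate 1, and for Gdf9 the value of -0.07 was -0.39 and for Zp2 that of -0.12 was -0.42 without both libraries. No range of the 5 genes was apart from control in this comparison.

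**Figure D2:**
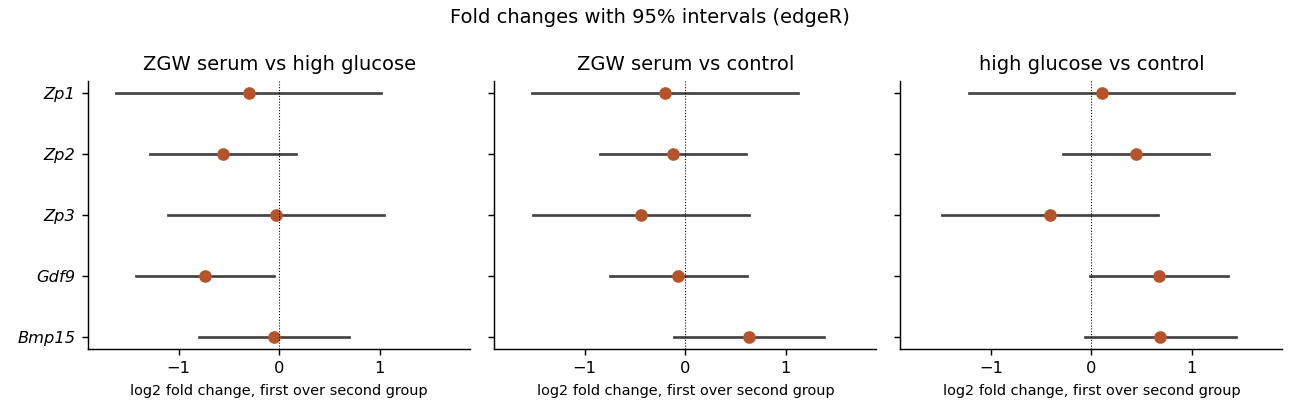
Log2 fold change of each gene in the 3 comparisons, first named group over second (horizontal axis); points are edgeR estimates and lines are 95% intervals. Only the interval of Gdf9 between ZGW serum and high glucose, from a fold of 0.372 to 0.961, leaves out no change, and no value passed the test across all genes.

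Relative to Bmp15, Gdf9 was lowest in the libraries with ZGW serum. Within a library the ratio of Gdf9 to Bmp15 counts does not depend on depth or scaling. It was 0.157, 0.149 and 0.108 with ZGW serum, against 0.203, 0.221 and 0.218 under high glucose and 0.212, 0.244 and 0.192 in control. All 3 libraries with ZGW serum were below all 6 others, while high glucose and control overlapped. Per kilobase of exon the ratio averaged 0.208 ± 0.040 with ZGW serum, 0.323 ± 0.014 under high glucose and 0.325 ± 0.040 in control (SD, n = 3 each). The mean log2 ratio differed by -0.65 ± 0.17 (SE) between ZGW serum and high glucose, a fold of 0.636, and by -0.66 ± 0.20 between ZGW serum and control, a fold of 0.634. Both gave p = 0.1 in an exact two-sided permutation test, the smallest that 3 against 3 can give, and an adjusted p of 0.45 over the 9 ratio tests. Between high glucose and control the difference was 0.00 on the log2 scale (-0.00488 ± 0.107, exact permutation p = 1).

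The same separation, with ZGW serum on 1 side of both other groups at once, held for 5.93% of all 28346685 pairs of genes averaging at least 10 CPM. It held for 5.09% of the ratios of Gdf9 to another such gene and for 4.60% of those of Bmp15. For single comparisons, ratios of 2 genes did not overlap in 17.4% for ZGW serum against high glucose, 17.3% for ZGW serum against control and 15.7% for high glucose against control. For ratios of Gdf9 to another gene these shares were 28.9%, 12.2% and 25.9% in that order, and for those of Bmp15 12.2%, 21.9% and 24.3%. ZGW serum replicate 3 had the lowest ratio, and without it the differences were -0.48 against high glucose and -0.49 against control. Summed 2-cell activation genes stood at 6575, 5711 and 2627 CPM with ZGW serum, against 9525, 18296 and 10103 CPM under high glucose and 7313, 5387 and 14357 CPM in control. Those sums with ZGW serum lay below all of high glucose and overlapped control, and their part in the ratio was not tested.

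**Figure D3:**
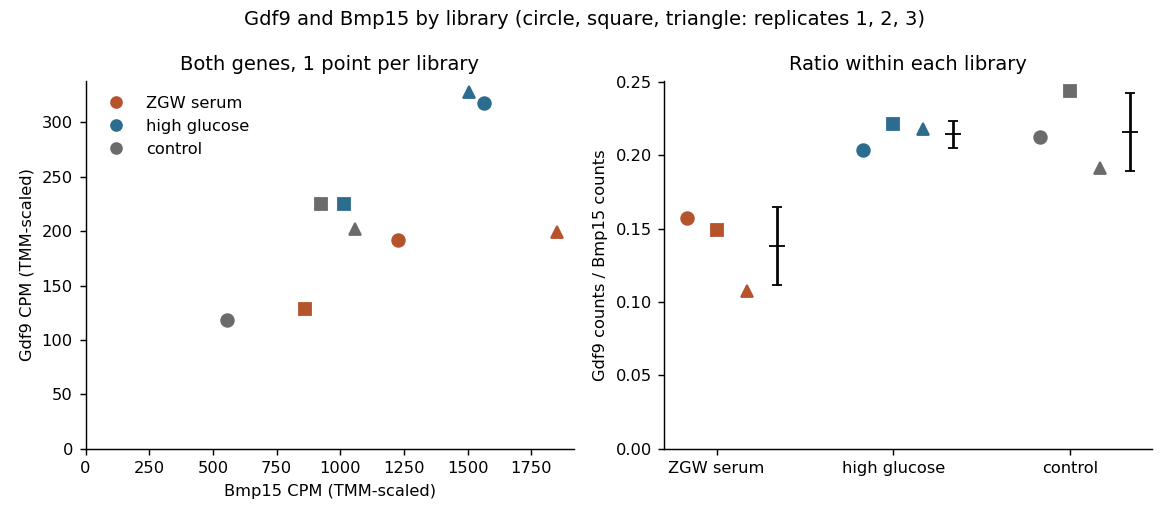
Left, Gdf9 against Bmp15 (TMM-scaled CPM), 1 point per library; right, the ratio of their counts within each library with the mean ± SD of 3 libraries per group. The ratios with ZGW serum lie between 0.108 and 0.157, below those under high glucose (0.203 to 0.221) and in control (0.192 to 0.244).

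The zona messengers kept no fixed balance. Zp2 to Zp3 counts stood at 0.807, 1.10 and 2.70 with ZGW serum, 2.95, 1.75 and 1.39 under high glucose and 0.710, 0.736 and 2.07 in control. Zp1 to Zp3 counts stood at 0.184, 0.316 and 0.535 with ZGW serum, 0.452, 0.172 and 0.502 under high glucose and 0.210, 0.315 and 0.165 in control. Groups overlapped in both ratios, and exact two-sided permutation p-values ran from 0.3 to 1. Per kilobase, each group held libraries with more Zp3 than Zp2 and libraries with less.

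Across the 9 libraries the highest value of a gene was 2.65 times the lowest for Zp2, 2.77 for Gdf9, 3.24 for Zp3, 3.32 for Bmp15 and 4.26 for Zp1. The spread between replicates as edgeR estimates it, the biological coefficient of variation, was 0.296 for Gdf9, 0.315 for Zp2, 0.315 for Bmp15, 0.434 for Zp3 and 0.536 for Zp1, where the median of the 7530 genes with at least 10 CPM was 0.425. Gdf9, Zp2 and Bmp15 were thus among the steadier of such genes, at percentiles 12.6, 18.6 and 18.8. Zp3 lay near the middle at percentile 52.1, and Zp1, the least counted, at 75.7.

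Pairs of the 5 genes were compared over the 9 libraries on log2 CPM, with 10 correlations in all. Gdf9 and Bmp15 had the highest, with Pearson's r of 0.74 (exact permutation p = 0.0241, adjusted p = 0.241) and Spearman's rho of 0.52 (exact permutation p = 0.162, adjusted p = 0.388). Without control replicate 1 and high glucose replicate 3, the libraries farthest from the median of Gdf9, r was 0.49. On deviations from the group means r was 0.91, with an exact permutation p of 0.0185 for labels permuted within groups (216 permutations) and an adjusted p of 0.185. None of the 10 pairs passed after adjustment. Zp3 and Bmp15 had the lowest r, at -0.60 (exact permutation p = 0.0898, adjusted p = 0.299; rho = -0.53, exact permutation p = 0.148, adjusted p = 0.388), which was -0.15 without high glucose replicate 1 and ZGW serum replicate 3. Zona genes had r of -0.23 for Zp1 with Zp2, 0.43 for Zp1 with Zp3 and -0.08 for Zp2 with Zp3, with exact permutation p-values of 0.555, 0.252 and 0.832 (adjusted 0.712, 0.505 and 0.898). Their rho values were -0.32, 0.48 and -0.18 (exact permutation p of 0.410, 0.194 and 0.644, adjusted 0.683, 0.388 and 0.843), and without the 2 farthest libraries r was -0.34, 0.50 and -0.66.

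**Figure D4:**
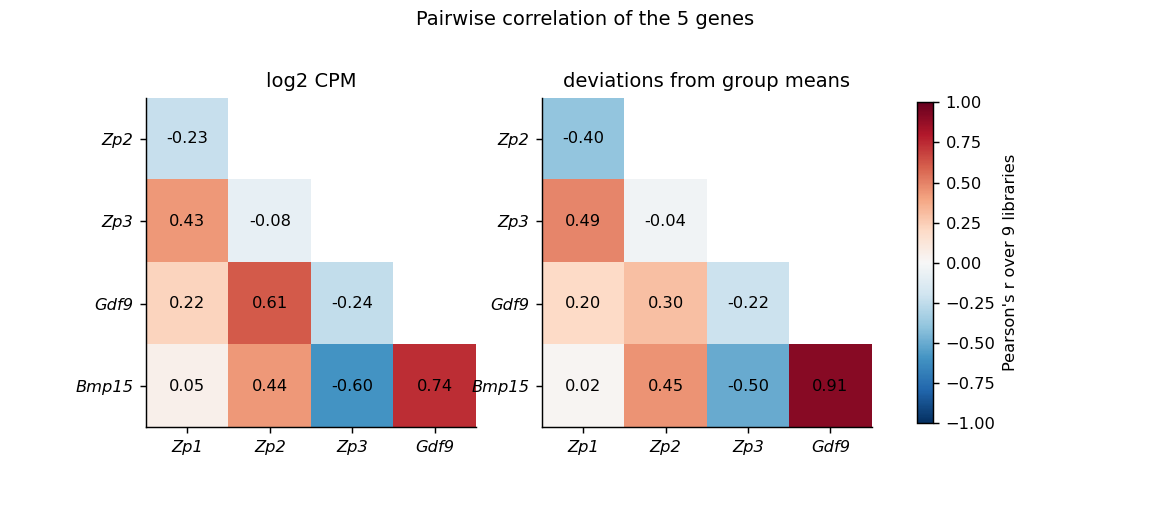
Pearson's r of each pair of genes over the 9 libraries, on log2 CPM (left) and on deviations from the group means (right); red is positive and blue negative. Gdf9 with Bmp15 is highest in both panels (0.74 and 0.91), and the pairs of zona genes lie between -0.40 and 0.49.

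The genes with the most similar pattern to each of the 5 lay outside the group, as do nearly all the genes compared. Likeness was Pearson's r of log2 CPM over the 9 libraries among 7529 other genes with at least 10 CPM; the top genes are given as descriptions, since the highest of so many values is large by selection. For Gdf9 they were Pias1, a SUMO ligase (r = 0.98), Spry4, an inhibitor of receptor tyrosine kinase signalling (0.97), and Stradb, a pseudokinase (0.96), while Bmp15 ranked 249. For Bmp15 they were Dkc1, the pseudouridine synthase dyskerin (0.97), Slc7a11, a cystine transporter (0.96), and Tmcc3 (0.96), with Gdf9 at rank 401. For Zp3 they were Atp6v0b, a subunit of the proton pump (0.99), Mrpl10 of the mitochondrial ribosome (0.94) and Taldo1, an enzyme of the pentose phosphate pathway (0.94). For Zp2 they were Cd55b, a complement regulator (0.97), Aspm, a spindle protein (0.94), and Elmod2 (0.93), and for Zp1 Tmem109 (0.91), Atxn1 (0.88) and Ccnf, a cyclin of an F-box ligase (0.85).

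Some factors that act upstream of these genes in the oocyte were still measurable. Among the 10 listed, 6 averaged at least 10 CPM and 1 averaged under 1 CPM. Of 10 oocyte transcription factors 9 were tested and 0 were called in any comparison by edgeR's test (lowest adjusted p = 0.416; 2 had an unadjusted p under 0.05 between ZGW serum and high glucose, 1 between ZGW serum and control and 0 between high glucose and control). Nobox, a homeobox factor known to act on the Gdf9 promoter in mouse, stood at 37.0, 22.5 and 60.6 CPM with ZGW serum, against 144.0, 41.0 and 155.0 CPM under high glucose and 124.0, 43.2 and 57.4 CPM in control. High glucose replicate 2 lay below ZGW serum replicate 3, so the ranges overlapped (log2 fold change between ZGW serum and high glucose -1.50 ± 0.58, edgeR adjusted p = 0.533). Lhx8, a LIM homeobox factor of the early oocyte, stood at 44.8, 68.2 and 66.0 CPM with ZGW serum, against 22.1, 23.5 and 37.0 CPM under high glucose and 20.5, 37.1 and 25.4 CPM in control. Its ranges were apart from both, with log2 fold changes of 1.12 ± 0.38 against high glucose and 1.11 ± 0.38 against control (edgeR adjusted p = 0.486 and 0.416). Figla, which encodes the factor FIGLA, averaged 6.59 ± 6.89 CPM with ZGW serum, 2.28 ± 2.34 under high glucose and 4.05 ± 1.25 in control (SD, n = 3 each).

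Of the partners of the zona at the egg surface, 8 of 10 listed names were in the table and 0 were called (edgeR lowest adjusted p = 0.552; 0 had an unadjusted p under 0.05 in any comparison). Izumo1r, the egg receptor for the sperm protein IZUMO1, averaged 29.1 ± 8.91 CPM with ZGW serum, 38.0 ± 1.63 under high glucose and 30.7 ± 13.8 in control (SD, n = 3 each). Astl, which encodes ovastacin, the cortical granule protease that cleaves ZP2 after fertilisation, averaged 12.9 ± 11.0 CPM with ZGW serum, 6.49 ± 5.28 under high glucose and 18.9 ± 9.59 in control. The tetraspanin Cd9, needed for fusion with sperm, reached 184.8 CPM in control replicate 1 and stayed between 32.7 and 64.8 CPM in the 8 other libraries.

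On the side of the growth factors, 0 of 16 receptor and Smad genes were called, with 0 at an unadjusted p under 0.05 between ZGW serum and high glucose, 1 between ZGW serum and control and 3 between high glucose and control (edgeR lowest adjusted p = 0.456). The type 2 receptor Bmpr2 averaged 113.1 ± 47.7 CPM with ZGW serum, 157.5 ± 30.5 under high glucose and 97.6 ± 29.3 in control. Smad3, which relays GDF9 signals, stood at 58.2, 64.8 and 122.5 CPM with ZGW serum, against 33.8, 56.6 and 35.4 CPM in control, with ranges apart and the highest value in ZGW serum replicate 3 (log2 fold change 0.96 ± 0.38, edgeR adjusted p = 0.456). Tgfbr1, the type 1 receptor of GDF9, stood at 6.50, 26.1 and 32.9 CPM under high glucose, against 86.6, 51.3 and 32.4 CPM in control, with a slight overlap and the highest value in control replicate 1 (log2 fold change -1.38 ± 0.57, edgeR adjusted p = 0.656). The 6 cumulus genes that respond to GDF9 and BMP15 summed to 0.532 to 3.88 CPM with ZGW serum, 0.831 to 11.7 under high glucose and 4.02 to 12.02 in control, and 4 of them averaged under 1 CPM.

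Other signals stored by the oocyte gave 0 calls among 9 genes (edgeR lowest adjusted p = 0.370; 2, 1 and 1 had an unadjusted p under 0.05 in the comparisons of ZGW serum with high glucose, ZGW serum with control and high glucose with control). Tgfb2, another ligand of the family, averaged 624.7 ± 228.3 CPM with ZGW serum, 978.2 ± 286.5 under high glucose and 757.0 ± 247.8 in control, with overlap. Bmp6, an oocyte ligand of the BMP class, averaged 68.9 ± 13.6 CPM with ZGW serum, 77.2 ± 15.8 under high glucose and 52.7 ± 26.5 in control. The lowest adjusted p of this list was that of Oosp1 between ZGW serum and high glucose. Its libraries ranged from 4217 to 5523 CPM with ZGW serum, 2301 to 2758 under high glucose and 3337 to 3665 in control. These ranges were apart in each comparison, as they were for 17.3%, 16.3% and 13.7% of all genes tested. Oosp3, which encodes an oocyte-secreted protein, stood at 4775, 4923 and 9147 CPM with ZGW serum, against 4350, 2064 and 3250 CPM under high glucose and 4332, 4687 and 3286 CPM in control. It was above both other groups in each library with ZGW serum, whereas Gdf9 was below high glucose in each, and neither passed the test (Oosp3 edgeR adjusted p = 0.506 against high glucose and 0.582 against control).

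Among 24 other stored oocyte transcripts 0 were called, with 3, 0 and 2 at an unadjusted p under 0.05 in the same order of comparisons (edgeR lowest adjusted p = 0.493). Between ZGW serum and high glucose their median log2 fold change was -0.15, beside -0.30 for the 5 genes and 0.00 for all genes tested (0.00105). Between high glucose and control it was 0.11, beside 0.44 for the 5 genes and -0.02 for all genes. Between ZGW serum and control it was 0.00434, beside -0.12 for the 5 genes and 0.000785 for all genes. A median of 5 genes is the value of 1 of them, Zp1 in the first of these comparisons and Zp2 in the others. It does not describe a shift of the 5 genes as a set. Nlrp4f, an oocyte member of the NLR family, stood at 339.5, 299.4 and 626.7 CPM with ZGW serum, against 1040, 618.3 and 625.9 CPM under high glucose and 350.0, 308.3 and 493.1 CPM in control. Like Gdf9 and Bmp15, its highest mean was under high glucose, which also held for others of the 24, among them Nlrp14 and Spin1. Dppa3, which encodes a maternal protector of DNA methylation, stood at 16064, 10725 and 32807 CPM with ZGW serum, against 7705, 9319 and 12448 CPM under high glucose and 13709, 21661 and 15690 CPM in control. Its highest library was ZGW serum replicate 3, and its lowest mean was under high glucose, where Gdf9 and Bmp15 had their highest. Among 14 measured 2-cell activation genes 0 were called, and an unadjusted p under 0.05 was found for 9 of them between ZGW serum and high glucose, 5 between ZGW serum and control and 0 between high glucose and control (edgeR lowest adjusted p = 0.370). Over all genes tested these shares were 8.68%, 9.86% and 7.39%. By fitted value, 14 of the 14 were lower with ZGW serum than under high glucose, 12 were lower with ZGW serum than in control, and 11 were higher under high glucose than in control. Most of the 14 belong to the Zscan4, Tcstv and Tdpoz families of similar genes, so they are not 14 independent values. How reads matching several of them were counted is not given.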

How the data were processed

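The authors deposited raw read counts per gene symbol for 9 libraries. Per the submitters' processing notes, reads went through Trim Galore and the build was mm10. Which aligner, counter, annotation and strand setting were used is not given in the sources used here. Reads had no stated molecular identifiers, so counting intervals cover counting error only.

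Groups and replicate numbers came from the labels. Genes were tested with edgeR 4.0.16 (R 4.3.3) by the quasi-likelihood test with TMM factors, a minimum count of 10 in edgeR's filter, robust estimation and all 9 libraries in 1 fit, with Benjamini-Hochberg adjustment over 16964 genes at a threshold of 0.05. The procedure was run on simulated data with planted changes larger than those fitted for the zona and growth factor genes. That run does not bear on changes of their size. Standard errors are the log2 fold change over the square root of F. Log2 CPM used a prior count of 2. Alternatives included DESeq2 1.42.0 and limma-voom (limma 3.58.1). Exon lengths and positions came from GENCODE M21 on GRCm38, the assembly that mm10 names. Replicates were separate libraries, with chi-square per degree of freedom from 46.5 to 123.8 within groups.

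The members and lists were chosen with earlier results of these data known. Described genes were the 5 members, the 3 genes most like each of them (at least 10 CPM, no predicted names), and up to 3 listed genes of lowest p-value per list and comparison. Uqcrq, Izumo1r, Figla, Fst, Hbb-bs and Hbb-bt fall outside that rule and were added after their values were seen.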

Additional observations from a re-analysis of the deposited data

How the results depend on the processing

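The 5 genes were uncalled in the main fit and in all 255 values of the alternatives (17 for each gene and comparison), with adjusted p-values from 0.326 to 1. Direction held in 239 of them. Leaving out single libraries reversed small differences: between ZGW serum and high glucose the log2 fold change ran from -0.36 to 0.18 for Bmp15, from -0.55 to 0.27 for Zp3 and from -0.54 to 0.29 for Zp1; between ZGW serum and control from -0.31 to 0.11 for Gdf9, from -0.60 to 0.29 for Zp1 and from -0.29 to 0.063 for Zp2; and between high glucose and control from -0.53 to 0.60 for Zp1. With control replicate 1 and ZGW serum replicate 3 both left out, Zp3 turned to 0.28 between ZGW serum and high glucose. The log2 ratio of Gdf9 to Bmp15 ran from -0.75 to -0.48 between ZGW serum and high glucose and from -0.76 to -0.49 between ZGW serum and control, and from -0.087 to 0.086 between high glucose and control, while Zp1 to Zp3 ran from -0.60 to 0.28 between ZGW serum and high glucose and Zp2 to Zp3 from -0.13 to 0.89 between ZGW serum and control.

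DESeq2 called 241, 348 and 129 genes between ZGW serum and high glucose, ZGW serum and control, and high glucose and control, none of them one of the 5. Between ZGW serum and control 1 gene, Paip1, was called by limma-voom, by edgeR without a filter and by edgeR with the stricter filter, named after its value was seen. RLE factors, fits of only the groups compared and every fit that left out a library called 0. Without Bmp15 the summed share was 0.0299% with ZGW serum, 0.0434% under high glucose and 0.0316% in control, and without Gdf9 it was 0.148% under high glucose. Without the 2 farthest libraries r turned to -0.11 for Zp1 with Gdf9, -0.27 for Zp1 with Bmp15 and 0.12 for Zp3 with Gdf9. The cause of these moves was not tested. The labels do not say what same-numbered libraries share, so the numbers were not taken as pairs. Correlations of deviations ran from -0.00648 to 0.104 for same-numbered libraries and from -0.0950 to 0.0458 for differently numbered ones. Of 9 libraries, 2 correlated best with their own number. The replicate block called 0 genes in each comparison. It gave Gdf9 a log2 fold change of -0.74 between ZGW serum and high glucose (edgeR adjusted p = 0.576).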
